A study of Mus musculus with 12 samples.

Results

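The interaction of genotype and day asked whether the difference between OTII cells primed in Il6-/- recipients and OTII cells primed in WT recipients was the same on Day 3 as on Day 5. It used all 12 of the 12 libraries of the series, 3 in each of 4 groups. For each gene it was the log2 fold change of Il6-/- over WT recipients on Day 3 minus that on Day 5, so a positive value means that the gene stood higher in Il6-/- relative to WT recipients on Day 3 than on Day 5. OTII cells are CD4+ T cells whose receptor, a transgene, recognizes a peptide of OVA. Naive OTII cells were transferred into WT (B6) or Il6-/- mice, and all recipients were sensitized through the nose with LPS-containing house dust mite (HDM) extract and OVA. The donor cells were sorted from the mediastinal lymph nodes on Day 3 or Day 5. The 4 groups were thus WT recipients on Day 3, Il6-/- recipients on Day 3, WT recipients on Day 5 and Il6-/- recipients on Day 5. The deletion was carried by the host, and the donor cells were OTII cells in every group. The ages of the mice, and whether a library came from 1 animal or from a pool, are not given in the sources used here, so p-values measure the spread between 3 libraries, which may be technical. The labels name blood as the tissue, whereas the series' design and the study's methods name the lymph nodes. The series and the study also start their day counts differently, and the days are named here as in the labels.

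Each library held 16125947 to 26111657 counts on genes, and 60.2% to 62.2% of the reads of a Day 3 library fell on genes against 52.5% to 56.7% on Day 5. The sorted cells carried the markers of CD4+ T cells: Cd4 lay between 825 and 1347 CPM (counts scaled to a common library total, computed with TMM) in every library, whereas Cd8a reached at most 1.70 CPM and Ncr1, which marks NK cells, was at 0 in 11 of the 12 libraries. Among the other CD8 T cell and NK cell markers, Cd8b1 stood at 56.3 to 84.2 CPM and Klrb1c at 3.75 to 36.5 CPM. Lung epithelium markers summed to 1.80 to 45.4 CPM per library and varied within groups, with Sftpc at 0.675 to 14.1 CPM in WT recipients on Day 5. Of 9 of them tested, 9 had a positive interaction estimate, with a median of 1.74, and 0 passed the threshold used below. The part of such RNA in the results was not tested. Il6 itself had 0 to 5 reads per library, and because the donor cells were the same kind of cell in all groups, these reads do not check the labels. Of 40840 listed genes, 13570 passed edgeR's filter on low counts and were tested.

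IL-6 is a cytokine that signals through its receptor and gp130 to the transcription factor STAT3. In CD4+ T cells, STAT3 induces Socs3, an inhibitor of cytokine signaling, as well as genes of T follicular helper (Tfh) cells and of Th17 cells. IL-2 signals through STAT5, restrains Tfh genes such as Bcl6, and goes along with high synthesis of ribosomes and amino acid uptake. Type I interferons signal through STAT2 and IRF9, among other factors, and induce a broad set of antiviral genes. T cells that were primed in a lymph node divide several times over the first days and then slow down.

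The difference between recipients changed with the day for 668 of the 13570 genes tested (4.92%) at an FDR under 0.05 (edgeR's quasi-likelihood test with Benjamini-Hochberg adjustment). The interaction was positive for 424 genes (3.12% of the genes tested) and negative for 244 genes (1.8%), and 187 of the 668 genes had a difference of at least 1 on the log2 scale. On Day 3, 1021 genes (7.52%) were higher and 840 (6.19%) lower in Il6-/- recipients, and on Day 5, 172 genes (1.27%) were higher and 454 (3.35%) lower. Of these calls, 422 of the 1861 on Day 3 (22.7%) and 200 of the 626 on Day 5 (31.9%) had an interaction past the threshold, so most differences seen on a single day were not shown to differ between the days. Both days are computed from the same libraries as the interaction, and the classes used below describe those values without a test of their own. The median interaction over all genes tested was -0.004. Counts of list members at an unadjusted p under 0.05 are given below without the share of all genes tested at that level. With upper-quartile scaling the split was 344 positive and 307 negative, and with no scaling it was 228 and 420. The count of 668 became 235 without replicate 2 and 257 without replicate 3 of WT on Day 3, 313 and 288 without replicates 1 and 2 of WT on Day 5, and 258 without either of replicates 1 and 2 of Il6-/- on Day 3. In all 12 fits that each left out 1 library, 198 of the 668 genes were called.

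Over all genes tested, same-numbered WT and Il6-/- libraries deviated together from their group means on Day 5 and only weakly on Day 3. The T cell receptor gene Trbc1 followed the replicate number on both days, so the Day 3 libraries were not shown to be unpaired. With the replicate number as a block within each day, as planned, the interaction called 1564 genes, among them all 668. With a block on Day 5 only, which was added after the data were seen, the interaction called 1452 genes, again among them all 668. It was positive for 792 genes (5.84%) and negative for 660 (4.86%), and on Day 5 itself 687 genes (5.06%) were higher and 800 (5.9%) lower in Il6-/- recipients. Values with this block are named as such below, and all others are without a block.

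Most of the 668 genes differed between recipients on Day 3 and no longer on Day 5. In this class, 389 genes were called on Day 3 only, 192 higher and 197 lower in Il6-/- recipients on that day. A further 167 genes were called on Day 5 only, 150 of them lower and 17 higher in Il6-/- recipients. For 20 genes the difference was called on both days in opposite directions, 16 of them higher on Day 3 and lower on Day 5 in Il6-/- recipients. For 12 genes it was called on both days in the same direction and was smaller on Day 5, and for 1 gene, Il17rb, it was larger on Day 5. The other 79 genes were called on neither day, and their estimates had opposite signs on the 2 days. These counts are for called genes: a difference that missed the threshold on a day was not shown to be absent. In bulk RNA, fewer cells that carry a transcript and less of it per cell cannot be told apart.

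In most of these classes the level moved further with time in the cells from Il6-/- recipients. From Day 3 to Day 5, 4004 genes (29.5%) rose and 3684 (27.1%) fell in WT recipients, and 4122 (30.4%) rose and 4089 (30.1%) fell in Il6-/- recipients. The 197 genes that were lower in Il6-/- recipients on Day 3 alone had a median change over time of 0.88 in Il6-/- and of 0.09 in WT recipients on the log2 scale, and 162 of them rose in Il6-/- recipients. In WT recipients their mean level was 5.92 log2 CPM on Day 3 and 5.93 on Day 5, and in Il6-/- recipients it was 5.04 and 6.01. The 192 genes that were higher in Il6-/- recipients on Day 3 alone had a median change over time of -0.78 in Il6-/- and of -0.18 in WT recipients, and 159 of them fell in Il6-/- recipients. Among the 150 genes that were lower in Il6-/- recipients on Day 5 alone, 126 fell in Il6-/- recipients, with a median of -0.99, and 41 fell in WT recipients, with a median of -0.14. The 17 genes that were higher on Day 5 alone went the other way, since 16 of them fell in WT recipients with a median of -1.67 while the median in Il6-/- recipients was -0.21.

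**Figure D1:**
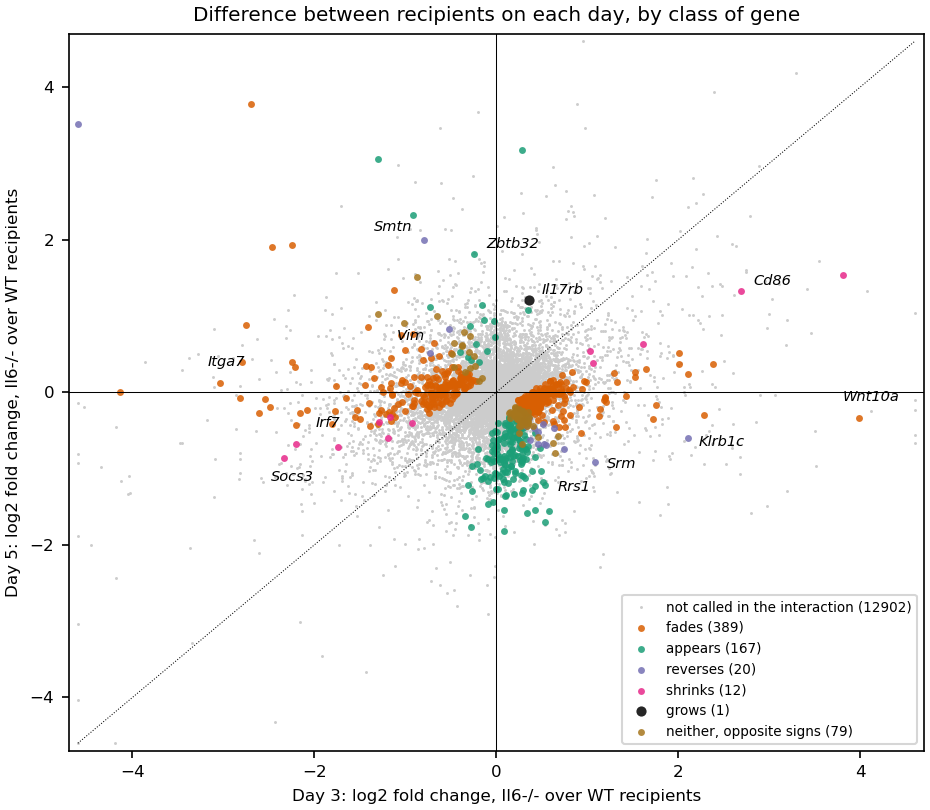
The log2 fold change of Il6-/- over WT recipients on Day 3 (horizontal axis) is plotted against that on Day 5 (vertical axis) for the genes tested, 1 point per gene, with genes called in the interaction colored by class and values beyond the axes drawn at the edge. The 389 genes called on Day 3 only lie along the horizontal axis, the 167 genes called on Day 5 only lie mostly below the center, and the dotted line marks equal values on both days.

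Genes induced by type I interferon were lower in Il6-/- recipients on Day 3 and few were called on Day 5. Of 48 members tested, 35 were lower on Day 3, 2 were lower on Day 5, and 10 had a negative and 0 a positive interaction. Over all genes tested, these shares were 6.19%, 3.35%, 1.8% and 3.12%, respectively. The list's median log2 fold change was -0.85 on Day 3 and -0.22 on Day 5, and its median interaction was -0.59. With the Day 5 block, 20 members had a negative and 1 a positive interaction, against 4.86% and 5.84% of all genes tested. The 10 members were Slfn5, Irf7, Stat2, Irf9, Parp9, Phf11b, Slfn1, Oas3, Ifi213 and Rsad2. RefSeq promoters (mouse build GRCm38.p6, 250 bases before to 50 bases after each start) were found for 9 of these 10 genes, and 6 of the 9 held the core of the interferon-stimulated response element, which was searched as GAAA, any 2 bases and GAAA on either strand. The core was in the promoters of 20 of 36 members of the list (55.6%) and of 3.7% of the 10397 promoters of tested genes that were matched. The 6 stretches are shown because they hold the sequence through which interferon factors are known to act, with the core in capitals and each written 5′ to 3′ on the strand of its gene.

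Slfn5 (chr11:82951927-82951976, forward strand): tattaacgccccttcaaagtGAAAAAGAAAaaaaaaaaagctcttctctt
Stat2 (chr10:128270256-128270305, forward strand): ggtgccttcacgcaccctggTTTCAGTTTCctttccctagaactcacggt
Phf11b (chr14:59341351-59341400, reverse strand): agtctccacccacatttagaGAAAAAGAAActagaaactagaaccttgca
Oas3 (chr5:120777705-120777754, reverse strand): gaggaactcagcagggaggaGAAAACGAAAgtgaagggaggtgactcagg
Ifi213 (chr1:173599316-173599365, reverse strand): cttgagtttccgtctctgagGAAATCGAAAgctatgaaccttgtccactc
Rsad2 (chr12:26456543-26456592, reverse strand): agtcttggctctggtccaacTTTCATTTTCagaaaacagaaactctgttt

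The interferon factors themselves were among these genes. Irf7 (chromosome 7, 140842619-140846398, reverse strand), the transcription factor that amplifies interferon responses, stood at 78.1, 70.1 and 84.7 CPM in WT and at 26.6, 22 and 31.8 CPM in Il6-/- recipients on Day 3. Its level on Day 5 was 91.6, 89.8 and 85.7 CPM in WT and 76.8, 79.5 and 70.9 CPM in Il6-/- recipients. Positions of genes here and below are those of GENCODE vM39 on build GRCm39, and each interval spans the exons and introns of the gene. The libraries of Il6-/- recipients on Day 3 were low and apart from the other 9, and those on Day 5 lay just under WT. The log2 fold change was -1.53 on Day 3 and -0.23 on Day 5, an interaction of -1.30 (standard error (SE) 0.16, FDR = 0.00134). Stat2, a signal transducer of the interferon receptor, stood at 29.8 to 30.6 CPM in Il6-/- recipients on Day 3 and at 43.1 to 53.1 CPM in the other 9 libraries (interaction -0.67, FDR = 0.00785). Irf9, its DNA-binding partner, had an interaction of -0.55 (FDR = 0.0173), and Ifnar2, a chain of the interferon receptor, one of -0.44 (FDR = 0.0334). Ifnar2 was called in 3 of the 12 fits that left out 1 library and Irf9 in 10.

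Several antiviral effectors were lower in Il6-/- recipients on Day 3 as well. Slfn5, a Schlafen family gene, stood at 38.6, 39.7 and 41.1 CPM in WT and at 12, 10.4 and 15.3 CPM in Il6-/- recipients on Day 3, and at 92.5, 85.7 and 75.1 CPM and 90.8, 73.1 and 75.7 CPM on Day 5. It rose in both recipients, from a lower start in Il6-/-, and the Day 5 libraries overlapped (interaction -1.58, SE 0.18, FDR = 0.000996). Slfn1, of the same family, had an interaction of -0.89 (FDR = 0.0286) and was called in 6 of the 12 fits. Rsad2, which encodes the antiviral enzyme viperin, stood at 2.57 to 5.32 CPM in WT and at 0.264 to 1.28 CPM in Il6-/- recipients on Day 3, and at 3.44 to 6.09 CPM on Day 5 (interaction -2.30, FDR = 0.0442). Oas3, an enzyme that senses double-stranded RNA, fell from Day 3 to Day 5 by 0.98 on the log2 scale in WT recipients and stood at a change of 0.24 in Il6-/- recipients (interaction -1.22, FDR = 0.0376). Ifi213, of the family of interferon-inducible DNA sensors, had an interaction of -1.23 (FDR = 0.0417), and Rsad2 and Ifi213 were called in 2 and 4 of the 12 fits. Parp9 and Phf11b had interactions of -0.53 and -0.56 and were called in 8 and 5 fits. Next in the list came Rtp4 and Helz2, with interactions of -0.99 and -0.51 that missed the threshold at an FDR of 0.0514 and 0.0513. Exons of Irf7, Slfn5, Irf9 and Parp9 overlap those of Phrf1, Slfn5os, Rnf31 and Dtx3l, and because strands were not told apart in counting, their reads cannot be separated from those of the neighbors with certainty.

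Genes of Tfh cells were lower in Il6-/- recipients on Day 3 and had a median fold change near 0 on Day 5. Of 17 Tfh genes tested, 9 were lower on Day 3, 1 on Day 5, and 7 had a negative and 0 a positive interaction. Over all genes tested, these shares were 6.19%, 3.35%, 1.8% and 3.12%, respectively. The list's median log2 fold change was -0.43 on Day 3 and 0.00 on Day 5. Its mean level per library was 6.61, 6.62 and 6.63 log2 CPM in WT and 5.68, 5.82 and 5.91 log2 CPM in Il6-/- recipients on Day 3, and the libraries of the 2 recipients overlapped on Day 5. The 7 genes were Bcl6, Cxcr5, Icos, Il21, Btla, Pou2af1 and Tox2. Sh2d1a, Maf and Il4, which are near these genes in function, had interactions of -0.44, -0.87 and -1.83 that missed the threshold (FDR = 0.113, 0.0809 and 0.123).

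Icos (chromosome 1, 61017086-61039479, forward strand), the costimulatory receptor that Tfh cells need, stood at 589, 635 and 629 CPM in WT and at 278, 292 and 334 CPM in Il6-/- recipients on Day 3. By Day 5 it was at 661, 684 and 824 CPM in WT and at 638, 648 and 708 CPM in Il6-/- recipients. The Day 3 libraries of Il6-/- recipients were apart from all others, and the Day 5 libraries overlapped (interaction -0.91, SE 0.13, FDR = 0.00299). Bcl6, the repressor that defines the Tfh program, stood at 35.8, 38.9 and 40.8 CPM in WT and at 17.0, 19.3 and 15.7 CPM in Il6-/- recipients on Day 3, and at 71.3, 99.1 and 101 CPM and 66.2, 101 and 97.9 CPM on Day 5. It rose in both, by 1.24 on the log2 scale in WT and by 2.35 in Il6-/- recipients, and replicate 1 was the lowest of its group in both recipients on Day 5 (interaction -1.12, FDR = 0.0137). Cxcr5, the chemokine receptor that leads to B cell follicles, had log2 fold changes of -1.45 and 0.10 on the 2 days (interaction -1.55, FDR = 0.00352), and its exons overlap those of Bcl9l.

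Il21, the cytokine by which Tfh cells act on B cells, stood at 26.5, 26.2 and 27.8 CPM in WT and at 3.70, 3.82 and 3.89 CPM in Il6-/- recipients on Day 3. The Day 5 values were 17.5, 50.5 and 41.4 CPM in WT and 12.2, 41.4 and 50.4 CPM in Il6-/- recipients. The Day 3 libraries were tight and far apart, whereas those of Day 5 were scattered and overlapping, with replicate 1 low in both recipients (interaction -2.74, SE 0.59, FDR = 0.0182). Under limma-voom this interaction was no longer called. Tigit, an inhibitory receptor of T cells, behaved alike, at 45.6 to 60.2 CPM in WT and 5.54 to 9.67 CPM in Il6-/- recipients on Day 3 and at 17.4, 67.5 and 65.2 CPM and 24.5, 79.8 and 93.2 CPM on Day 5 (interaction -3.19, SE 0.65, FDR = 0.0145). Btla, another inhibitory receptor, and Pou2af1, a transcriptional coactivator, had interactions of -0.58 (FDR = 0.0214) and -1.25 (FDR = 0.0142).

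TTCNNNGAA, the palindromic site that STAT factors bind, was searched in the same promoters, and it reads alike on both strands. It was in 8.38% of all matched promoters, in 7.79% of those of genes lower on Day 3 alone and in 9.82% of those of genes higher on Day 3 alone. Bcl6 and Socs3 are shown because their control by STAT factors is well known, with the site in capitals. Bcl6 had 4 matches in its promoters, of which 1 is given.

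Bcl6 (chr16:23981423-23981471, reverse strand): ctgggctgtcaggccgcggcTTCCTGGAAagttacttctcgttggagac
Socs3 (chr11:117969492-117969540, reverse strand): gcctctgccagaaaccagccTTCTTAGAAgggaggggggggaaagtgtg

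Of 19 chemokine and egress receptors tested, 3 were higher and 4 lower in Il6-/- recipients on Day 3, and 1 was higher and 0 lower on Day 5. Over all genes tested, 7.52% were higher and 6.19% lower on Day 3, and 1.27% higher and 3.35% lower on Day 5. A negative interaction was called for 1.8% of all genes tested. S1pr1, the receptor by which T cells leave the node, stood at 211, 260 and 258 CPM in WT and at 106, 106 and 131 CPM in Il6-/- recipients on Day 3. On Day 5 it stood at 303, 294 and 283 CPM in WT and at 276, 269 and 245 CPM in Il6-/- recipients. The Day 3 libraries of Il6-/- recipients were low and far apart from the others, and those of Day 5 lay just under WT (interaction -0.93, SE 0.14, FDR = 0.00414). S1pr4, of the same family, had an interaction of -0.89 (FDR = 0.00951). In this list 5 receptors had a negative and 0 a positive interaction, among them S1pr1, S1pr4 and Cxcr5, and Ccr4, which was called on Day 5 only.

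Of 13 genes that IL-2 is known to repress, 10 were lower in Il6-/- recipients on Day 3 and 2 on Day 5, and 5 had a negative interaction. Over all genes tested, these shares were 6.19%, 3.35% and 1.8%. Among the 5 were S1pr1, Cxcr5, Bcl6 and Btla, which the groups above hold too. Txnip, a brake on glucose uptake in resting cells, stood at 36.8 to 39.9 CPM in WT and at 18.0 to 22 CPM in Il6-/- recipients on Day 3 and rose to between 68.3 and 100 CPM in all libraries of Day 5 (interaction -0.95, FDR = 0.00944). Its exons overlap those of Gm15441.

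Among 16 integrin subunits, Itga7 and Itgb7 had a negative interaction, against 1.8% of all genes tested. Itga7 (chromosome 10, 128769621-128794169, forward strand), a laminin receptor chain, stood at 4.41, 3.61 and 4.23 CPM in WT and at 0.422, 0.636 and 0.427 CPM in Il6-/- recipients on Day 3, and at 5.70, 5.51 and 6.02 CPM and 4.02, 7.97 and 6.82 CPM on Day 5. It was near the bottom of the measured range in Il6-/- recipients on Day 3 only, and rose there by 3.65 on the log2 scale against 0.49 in WT recipients (interaction -3.16, SE 0.41, FDR = 0.00146). Itgb7, which pairs into the gut-homing integrin, had an interaction of -0.80 (FDR = 0.0226). Other genes with a strong fading difference were Slc9a9, a sodium/proton exchanger of endosomes, with an interaction of -1.34 (FDR = 0.00134), and Chst10, a sulfotransferase, with one of -1.17 (FDR = 0.00146). Tgfb3, a ligand of the TGF-beta family, faded in another way. It stood at 15.4, 12.5 and 14.6 CPM in WT recipients on Day 3 and at 1.74 to 4.34 CPM in the other 9 libraries, so that its level fell in WT recipients by 2.5 on the log2 scale (interaction -2.65, SE 0.44, FDR = 0.00553). Exons of Tgfb3 overlap those of Ttll5. Il17ra, Pecam1, Ddit4 and E2f2 were also lower on Day 3 alone, with interactions of -0.47, -0.46, -0.82 and -0.88. Ddit4 and E2f2 were called in 12 and 11 of the 12 fits, and Il17ra and Pecam1 in 2 each. Pecam1 is often used as an endothelial marker. Of the other stromal and endothelial markers, Cdh5 and Vwf reached at most 0.593 and 0.0529 CPM and Acta2 at most 2.80 CPM in any library. The part of such cells in the result for Pecam1 was not tested.

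**Figure D2:**
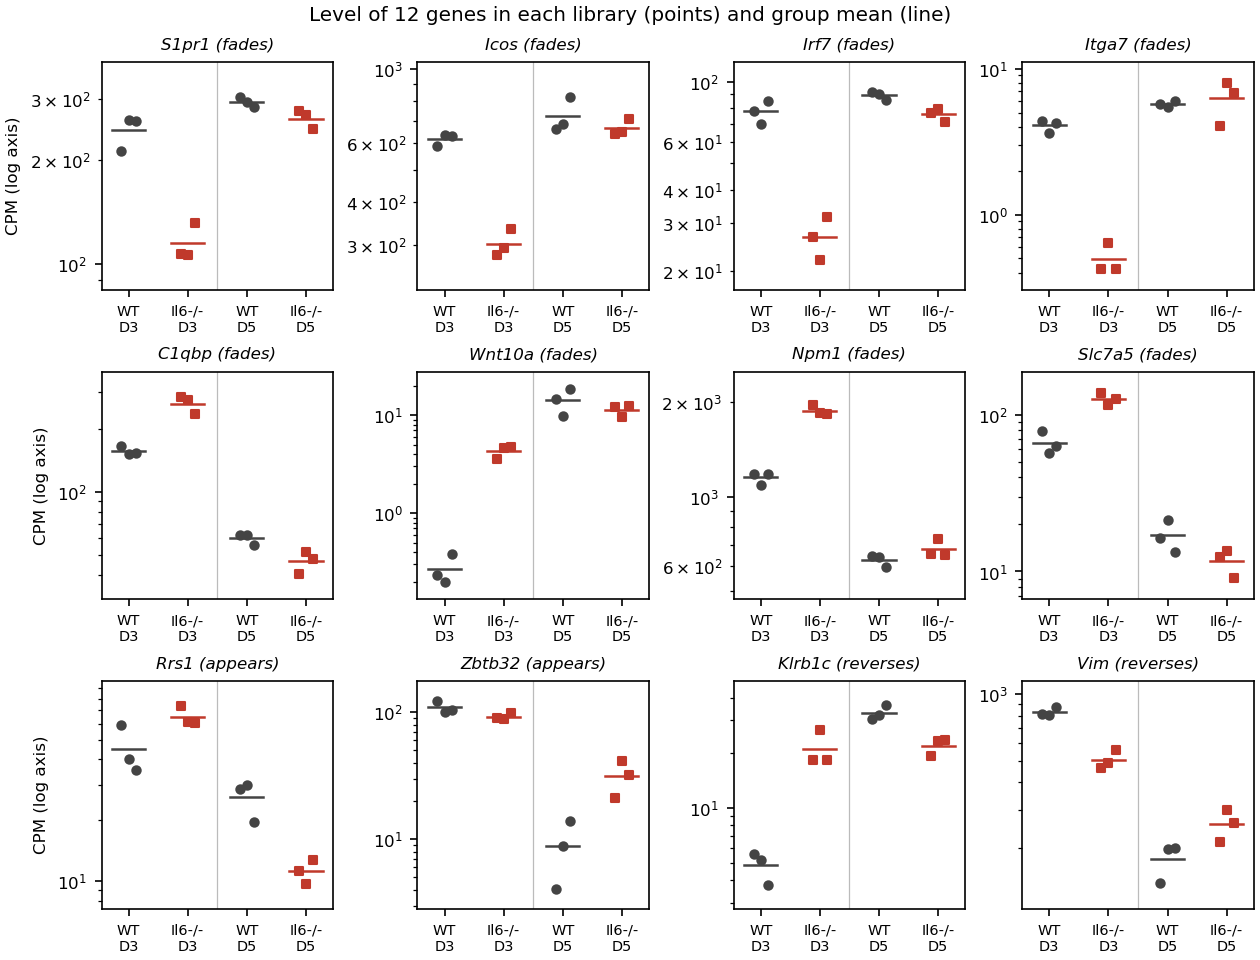
Level of 12 genes in each library in CPM on a log axis, with WT recipients as circles, Il6-/- recipients as squares and the mean of the 3 libraries of each group as a line. S1pr1, Icos, Irf7 and Itga7 are low only in Il6-/- recipients on Day 3, C1qbp, Wnt10a, Npm1 and Slc7a5 are higher in Il6-/- than in WT recipients on Day 3, Rrs1 and Zbtb32 part on Day 5, and Klrb1c and Vim change order between the days.

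Genes for the synthesis of ribosomes were higher in Il6-/- recipients on Day 3, and few of them were called on Day 5. The list of MYC targets and ribosome biogenesis genes had 34 members tested, and 26 of them were higher and 0 lower in Il6-/- recipients on Day 3, against 2 higher and 3 lower on Day 5. Over all genes tested, 7.52% were higher and 6.19% lower on Day 3, and 1.27% higher and 3.35% lower on Day 5. In the list the interaction was positive for 11 and negative for 0 members, against 3.12% and 1.8% of all genes tested. Its estimate was positive for all 34. The median log2 fold change was 0.59 on Day 3 and 0.10 on Day 5. With the Day 5 block, 19 members had a positive interaction, against 5.84% of all genes tested. The mean level per library was 6.47 to 6.71 log2 CPM in WT and 7.02 to 7.28 log2 CPM in Il6-/- recipients on Day 3, and it fell to between 5.58 and 5.86 log2 CPM in all libraries of Day 5, where the recipients overlapped.

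Npm1, the nucleolar chaperone nucleophosmin, stood at 1183, 1090 and 1181 CPM in WT and at 1964, 1849 and 1827 CPM in Il6-/- recipients on Day 3. Its level on Day 5 was 646, 642 and 599 CPM in WT and 655, 733 and 649 CPM in Il6-/- recipients. It fell in both recipients and from a higher level in Il6-/- (interaction 0.60, SE 0.10, FDR = 0.00536). Nop16, Gnl3 and Wdr43, which act in the nucleolus in the maturation of ribosomal RNA and subunits, had interactions of 0.77, 0.90 and 0.60, each called in all 12 fits. Nop56, Nop58, Utp4 and Ppan, of the same pathway, had interactions between 0.50 and 0.56 and were called in 3, 4, 3 and 2 of the 12 fits. Polr1a, the large subunit of RNA polymerase I, had an interaction of 0.65 that missed the threshold (FDR = 0.0541).

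Slc7a5, the transporter that brings leucine and other large amino acids into activated T cells, stood at 78.4, 56.9 and 62.9 CPM in WT and at 136, 116 and 125 CPM in Il6-/- recipients on Day 3. By Day 5 it was at 16.4, 21.4 and 13.2 CPM in WT and at 12.4, 13.6 and 9.11 CPM in Il6-/- recipients. All libraries of Il6-/- recipients were above WT on Day 3, and on Day 5 they lay lower with an overlap (interaction 1.47, SE 0.24, FDR = 0.00553). C1qbp, a mitochondrial protein needed for translation in mitochondria, stood at 165, 152 and 153 CPM in WT and at 283, 273 and 235 CPM in Il6-/- recipients on Day 3 and between 40.5 and 62.1 CPM on Day 5 (interaction 1.11, SE 0.14, FDR = 0.00137). Chchd10, a mitochondrial protein of the intermembrane space, had an interaction of 1.19 (FDR = 0.00222), and its level in Il6-/- recipients on Day 3, 48.6 to 54.6 CPM, was apart from 16.8 to 23.9 CPM in the other 9 libraries. Ppid, a cyclophilin, and Hspe1, the mitochondrial chaperonin, had interactions of 0.71 and 0.78. Snhg15, a host of small nucleolar RNA, had one of 1.44 (FDR = 0.00414). Exons of C1qbp, Chchd10, Ppid, Nop16, Gnl3 and Hspe1 overlap those of Rpain, of Gm867 and Mmp11, of Etfdh, of Higd2a, of Glt8d1 and Pbrm1, and of Hspd1, respectively.

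Wnt10a (chromosome 1, 74830675-74844355, forward strand), a secreted ligand of the Wnt pathway, had the largest positive interaction of the genes called. Its level on Day 3 was 0.234, 0.198 and 0.380 CPM in WT and 3.54, 4.61 and 4.74 CPM in Il6-/- recipients. The WT values on Day 3 were near the bottom of the measured range, which limits the precision of the changes that rest on them. The Day 5 values were 14.7, 9.82 and 18.4 CPM in WT and 12.2, 9.49 and 12.3 CPM in Il6-/- recipients. The level thus rose in both, by 5.72 on the log2 scale in WT and by 1.40 in Il6-/- recipients, and its Day 5 libraries overlapped (interaction 4.32, SE 0.42, FDR = 0.000207). Its exons overlap those of Gm32099. Bcl2l11, which encodes the death-promoting protein BIM, also rose with time in both recipients, from 8.47 to 10.5 CPM in WT and 20.4 to 24 CPM in Il6-/- recipients on Day 3 to between 63 and 94.2 CPM on Day 5 (interaction 1.29, FDR = 0.00504).

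Some genes of inflammation and antigen presentation were in this class. Tnfsf11, the cytokine RANKL, and Nfkbid, an inhibitor of the NF-kappaB family, had interactions of 0.55 and 0.54, and were called in 7 and 8 of the 12 fits. Psme2, a proteasome activator subunit, had an interaction of 0.42 (2 of 12 fits), and Ctsw, a cathepsin of cytotoxic cells, one of 1.64 (FDR = 0.0487, 3 of 12 fits). Cd74, the invariant chain of MHC class II, had an interaction of 1.04 (FDR = 0.020), at 13.9 to 17.2 CPM in WT and 34.1 to 42.3 CPM in Il6-/- recipients on Day 3. It was the only 1 of 9 MHC class II genes tested with a called interaction, and H2-Aa, H2-Ab1 and H2-Eb1, which make up the class II molecules themselves, reached at most 2.96, 4.92 and 2.39 CPM in any library. The B cell markers summed on Day 3 to 15.1, 21.0 and 22.6 CPM in WT and to 33.8, 38.2 and 34.7 CPM in Il6-/- recipients, without overlap, and on Day 5 to 24.9 to 34.6 CPM and 38.6 to 45.8 CPM. Of 7 of them tested, 2 were higher (Cd22 and Cd72) and 1 lower (Pax5) in Il6-/- recipients on Day 3, 0 had a called interaction by edgeR, and 2 had an unadjusted p under 0.05. Ms4a1, which defines B cells, reached at most 0.312 CPM. The myeloid and dendritic cell markers summed to 24.7 to 76.3 CPM in WT and 24 to 53.9 CPM in Il6-/- recipients on Day 3 and to 33.8 to 158 CPM on Day 5, with 0 of 15 called and 1 at an unadjusted p under 0.05. Their part in the result for Cd74 was not tested.

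Cytosolic ribosomal proteins were the list with the most called members, with a positive interaction for 30 and a negative one for 0 of 50 members. A positive interaction was called for 3.12% and a negative one for 1.8% of all genes tested. On Day 3, 20 members were higher and 0 lower in Il6-/- recipients, and on Day 5, 0 were higher and 5 lower. Over all genes tested, these shares were 7.52% and 6.19% on Day 3, and 1.27% and 3.35% on Day 5. The list's median log2 fold change was 0.25 on Day 3 and -0.23 on Day 5, and 45 members had estimates of opposite sign on the 2 days. With the Day 5 block, 45 members had a positive interaction and 27 were lower on Day 5, against 5.84% and 5.9% of all genes tested. The mean level per library was 9.17, 9.24 and 9.28 log2 CPM in WT and 9.44, 9.52 and 9.41 log2 CPM in Il6-/- recipients on Day 3. On Day 5 it was 9.71, 9.55 and 9.44 log2 CPM in WT and 9.46, 9.23 and 9.34 log2 CPM in Il6-/- recipients, where the libraries overlapped and replicate 1 was the highest of WT. Genes for ribosomal proteins have processed pseudogenes that can share their reads, so single members are uncertain.

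The members differed in size more than in sign. Rpl12 stood at 659, 753 and 771 CPM in WT and at 868, 948 and 870 CPM in Il6-/- recipients on Day 3, and at 1152, 1024 and 895 CPM and 872, 745 and 802 CPM on Day 5 (interaction 0.64, SE 0.13, FDR = 0.015). Its libraries did not overlap on either day. Rpl12, Rpl5 and Rps27a were called on Day 3 only, with interactions of 0.50 and 0.59 for the latter pair. Rpl35 and Rps28 were called on Day 5 only, with interactions of 0.62 and 0.81, and Rps28 in 2 of the 12 fits. Rpl30, Rpl21 and Rps13 were called on neither day, with interactions of 0.61, 0.66 and 0.53.

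For the 20 genes whose difference reversed, the interaction was called in all 12 fits that left out 1 library. The number of genes classed as reversed was less stable, at 6 to 67 in those fits. With a fold of at least 2 required on a day, it was 1. Klrb1c (chromosome 6, 128755448-128766178, reverse strand), which encodes the receptor NK1.1, stood at 5.58, 5.14 and 3.75 CPM in WT and at 18.2, 26.4 and 18.2 CPM in Il6-/- recipients on Day 3. On Day 5 it stood at 30.4, 32.3 and 36.5 CPM in WT and at 19.2, 23.1 and 23.3 CPM in Il6-/- recipients. The level rose in WT recipients by 2.77 on the log2 scale, changed by 0.06 in Il6-/- recipients, and the libraries did not overlap on either day (interaction 2.70, SE 0.24, FDR = 0.000166). The difference on Day 5 lay close to the threshold (log2 fold change -0.60, FDR = 0.0497). The 9 markers of CD8 T cells and NK cells, Klrb1c among them, summed on Day 3 to 62.6 to 74.5 CPM in WT and 83.7 to 114 CPM in Il6-/- recipients, and on Day 5 to 90.5 to 110.3 CPM and 85.8 to 100.8 CPM. Klra4 and Klra8 were at 0 in every library, and Ncr1 and Klre1 in all but 1 each. Eomes stood at 0.109 to 0.346 CPM in WT and 0.427 to 1.27 CPM in Il6-/- recipients on Day 3 and at 1.55 to 5.56 CPM on Day 5, and Gzma reached at most 1.37 CPM. The part of such cells in the result for Klrb1c was not tested.

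Srm, which makes the polyamine spermidine and is a MYC target, stood at 107, 71.4 and 66.3 CPM in WT and at 202, 172 and 145 CPM in Il6-/- recipients on Day 3, and at 30.3, 37.1 and 19.6 CPM and 13.3, 18.5 and 14.5 CPM on Day 5. It fell in both recipients, by 1.5 on the log2 scale in WT and by 3.49 in Il6-/- recipients, and passed from above to below WT (interaction 1.99, SE 0.31, FDR = 0.00433). Srsf6, a splicing factor, had log2 fold changes of 0.31 and -0.39, and Eno3, an enolase, of 0.64 and -0.47, with interactions of 0.71 and 1.11 (both FDR = 0.00146). Sdhaf1, an assembly factor of respiratory complex II, and Pdf, a mitochondrial deformylase, had interactions of 1.24 and 0.89. Exons of Pdf overlap those of Cog8 and Vps4a.

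Only 4 genes reversed from lower to higher in Il6-/- recipients, and 3 of them, Vim, Smtn and Ahnak, encode proteins of the cytoskeleton or its scaffold at the membrane. Vim (chromosome 2, 13578738-13587639, forward strand), the intermediate filament protein vimentin, stood at 812, 801 and 870 CPM in WT and at 462, 486 and 556 CPM in Il6-/- recipients on Day 3. Its level on Day 5 was 140, 199 and 200 CPM in WT and 214, 299 and 259 CPM in Il6-/- recipients. It fell with time in both, further in WT recipients, and the recipients did not overlap on either day (interaction -1.24, SE 0.19, FDR = 0.00414). Smtn, an actin-associated protein, stood at 194 to 255 CPM in WT and 106 to 151 CPM in Il6-/- recipients on Day 3, and at 46.9 to 64.4 CPM and 119 to 285 CPM on Day 5 (interaction -2.79, SE 0.34, FDR = 0.00128). Ahnak, a giant scaffold protein under the membrane, had log2 fold changes of -0.52 and 0.83 (interaction -1.35, FDR = 0.00128). Akap6, an anchoring protein of protein kinase A, had no count in the 3 libraries of Il6-/- recipients on Day 3 and 9 to 16 counts per library in WT recipients. Against a floor of 3 counts per library it was at least 3.89-fold lower on Day 3, its interaction was at most -5.02 with the same floor for WT on Day 5, and it stood at 0.741, 1.11 and 2.29 CPM in Il6-/- and at 0 to 0.188 CPM in WT recipients on Day 5. Exons of Smtn overlap those of Gm11946 and Selenom.

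On Day 5 alone, 150 genes were lower in Il6-/- recipients, among them factors of ribosome assembly. Rrs1 (chromosome 1, 9615633-9617680, forward strand), a ribosome assembly factor, stood at 59.3, 40.0 and 35.3 CPM in WT and at 73.4, 61.2 and 60.9 CPM in Il6-/- recipients on Day 3. By Day 5 it was at 28.6, 29.9 and 19.7 CPM in WT and at 11.2, 9.67 and 12.8 CPM in Il6-/- recipients. Il6-/- libraries were the higher on Day 3, with a log2 fold change of 0.53 (FDR = 0.067), and the lower on Day 5, at -1.21 (FDR = 0.0039), and neither day overlapped (interaction 1.75, SE 0.27, FDR = 0.00433). Noc2l, another nucleolar protein, had an interaction of 1.66 (FDR = 0.0247) and was called in 5 of the 12 fits. Exons of Rrs1 and Noc2l overlap those of 2610203C22Rik and Samd11.

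Other genes of this class have roles in membranes and in transcription. Rab2a, a GTPase of the secretory pathway, stood at 140 to 158 CPM in all libraries of Day 3, and at 179, 192 and 132 CPM in WT and 90.1, 86.1 and 87.5 CPM in Il6-/- recipients on Day 5 (interaction 1.01, SE 0.16, FDR = 0.00414). Its libraries overlapped on Day 3 and were apart on Day 5. Ptges2, a prostaglandin E synthase, had a log2 fold change of -1.32 on Day 5 (interaction 1.60, FDR = 0.00504), and Plbd2, a lysosomal protein, one of -0.55 (interaction 0.80, FDR = 0.00325). Tcf3, which encodes the E proteins E12 and E47, and Id2, the inhibitor that binds E proteins, were both lower on Day 5, with log2 fold changes of -0.74 and -0.70. Id2 stood at 251, 198 and 203 CPM in WT and at 160, 124 and 118 CPM in Il6-/- recipients on Day 5, and at 50.6 to 75.8 CPM on Day 3 (interaction 0.98, FDR = 0.0144). Dusp2, a phosphatase that ends ERK signaling, rose by 1.24 on the log2 scale in WT and by 0.33 in Il6-/- recipients (interaction 0.90, FDR = 0.00885). Smad1 had an interaction of 1.04 (FDR = 0.0492) and was called in 2 of the 12 fits.

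Of the 17 genes that were higher in Il6-/- recipients on Day 5 alone, most fell steeply in WT recipients. Zbtb32 (chromosome 7, 30289105-30302262, reverse strand), a repressor that is induced when T cells are activated, stood at 123, 100 and 105 CPM in WT and at 90.1, 88.6 and 98.2 CPM in Il6-/- recipients on Day 3. The Day 5 values were 4.02, 8.78 and 13.8 CPM in WT and 21.0, 41.4 and 32 CPM in Il6-/- recipients. The Day 3 levels lay close together, and the Day 5 libraries were apart, with replicate 1 the lowest of both groups (interaction -2.06, SE 0.40, FDR = 0.0112). Ticrr, which is needed to fire replication origins, stood at 51.9 to 67.3 CPM on Day 3, and at 4.84, 7.43 and 7.95 CPM in WT and 11.3, 17.6 and 15.9 CPM in Il6-/- recipients on Day 5 (interaction -1.30, FDR = 0.00973). Anxa2, a membrane-binding annexin, Pik3cg, a PI3 kinase of leukocytes, and Myo6, a myosin, had interactions of -1.85, -0.70 and -3.24. Ccr4, a chemokine receptor of Th2 cells, had an interaction of -0.86 at the edge of the threshold (FDR = 0.0499, 2 of 12 fits). Exons of Ticrr and Myo6 overlap those of Kif7 and Gm27227.

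Genes of the cell cycle showed a like direction with calls that turned on the replicate block. Of 40 G2/M genes tested, 0 were called in the interaction by edgeR without a block, and the estimate was negative for 39, with a median of -0.80. The median log2 fold change was -0.06 on Day 3 and 0.70 on Day 5. At an unadjusted p under 0.05, 19 members passed, and the share of all genes tested at that level is not given here. The median interaction became -1.05 without replicate 1 and -0.48 without replicate 2 of Il6-/- on Day 5. With the Day 5 block, 34 had a negative interaction and 35 were higher in Il6-/- recipients on Day 5. Over all genes tested, these shares were 4.86% and 5.06%. The mean level per library was 7.51 to 7.66 log2 CPM on Day 3, and on Day 5 it was 4.15, 5.03 and 5.02 log2 CPM in WT and 4.75, 5.96 and 5.4 log2 CPM in Il6-/- recipients. Within each recipient replicate 1 was the lowest on Day 5, and each Il6-/- library lay above the WT library of the same number although the groups overlapped. Prc1 and Kif23, which act in cell division, had interactions of -0.81 and -0.90 (FDR = 0.0852 and 0.0931, and 0.00125 and 0.00228 with the block). Cdc25b, a phosphatase for entry into mitosis, had one of -1.11 (FDR = 0.0586, and 0.000439 with the block).

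Of 41 genes of DNA replication and G1/S, only E2f2 had a called interaction without a block, and 20 had a negative one with the Day 5 block. With that block, 4.86% of all genes tested had a negative interaction. The list's median log2 fold change was 0.12 on Day 3 and 0.51 on Day 5, where 5 members were higher in Il6-/- recipients without and 31 with the block. Over all genes tested, 1.27% were higher on Day 5 without and 5.06% with the block. Cdc6, the loader of replicative helicases, stood at 122 to 167 CPM on Day 3, and at 5.85, 13.7 and 11.8 CPM in WT and 14.8, 30.5 and 22.2 CPM in Il6-/- recipients on Day 5 (interaction -0.79, FDR = 0.194, and 0.00125 with the block). Pola1, of the DNA polymerase that starts strands, had an interaction of -0.80 (FDR = 0.0977, and 0.0037 with the block). E2f2 differed from the list, since its difference lay on Day 3, at 91.0 to 117 CPM in WT and 60.9 to 69.5 CPM in Il6-/- recipients.

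**Figure D3:**
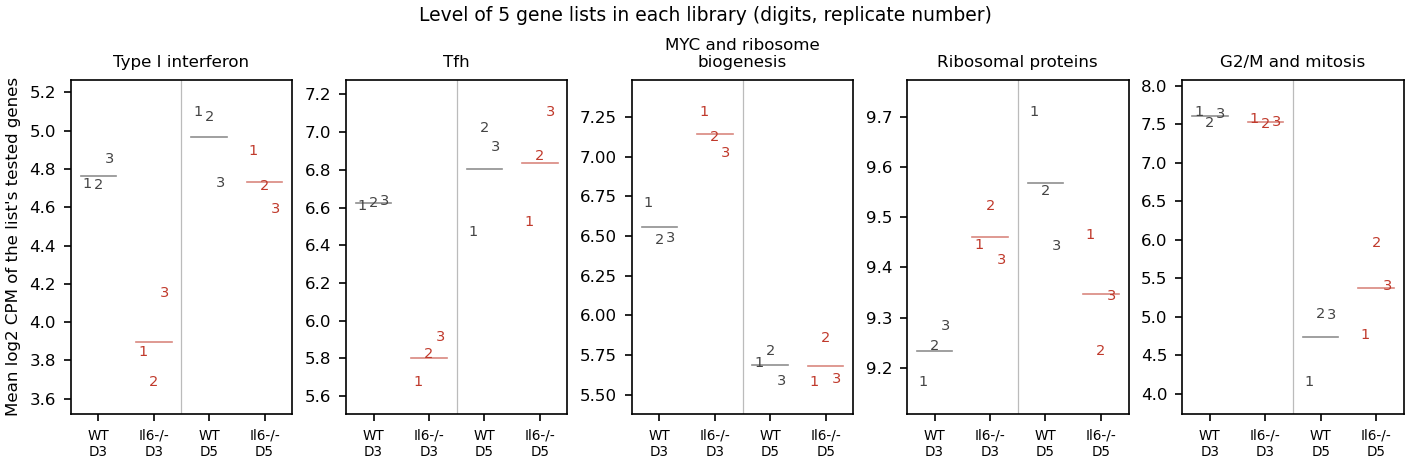
Mean log2 CPM of the tested members of 5 gene lists in each library, with digits giving the replicate number, lines the group means, and separate vertical scales. Type I interferon and Tfh genes are lowest in Il6-/- recipients on Day 3, and MYC and ribosome biogenesis genes are highest there. On Day 5 each Il6-/- library of the interferon list lies below the WT library of the same number, although the groups overlap. Ribosomal proteins change order between the days, and G2/M genes part by replicate number on Day 5.

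A difference on both days that shrank was called for 12 genes. Socs3, the STAT3-induced feedback inhibitor, stood at 13.3, 15.8 and 19.9 CPM in WT and at 3.43, 2.60 and 3.60 CPM in Il6-/- recipients on Day 3. On Day 5 it stood at 22.1, 25.1 and 20.3 CPM in WT and at 14.1, 10.3 and 12.9 CPM in Il6-/- recipients. The libraries did not overlap on either day, and the log2 fold change went from -2.34 to -0.86 (interaction -1.48, SE 0.26, FDR = 0.00807). Tox2, a transcription factor of Tfh cells, went from -2.20 to -0.68 (interaction -1.52, SE 0.25, FDR = 0.00532), and stood at 24.1 to 27.3 CPM in Il6-/- and 106 to 127 CPM in WT recipients on Day 3. Tnfrsf25, the receptor DR3, Susd3 and Syt11 had interactions of -1.02, -0.89 and -0.85. Exons of Tnfrsf25 and Syt11 overlap those of Espn and Rit1.

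In the other direction, Cd86, a ligand of CD28, stood at 4.45, 3.86 and 2.93 CPM in WT and at 26.3, 21.2 and 25.5 CPM in Il6-/- recipients on Day 3, and at 16.6, 9.97 and 13.2 CPM and 42.3, 28.1 and 29.4 CPM on Day 5. It was higher in Il6-/- recipients on both days without overlap, and the log2 fold change went from 2.69 to 1.33 as the level in WT recipients rose (interaction 1.36, SE 0.29, FDR = 0.0182). Rxra, a nuclear receptor, and Lta, the cytokine lymphotoxin alpha, had interactions of 0.98 (FDR = 0.0136) and 0.68 (FDR = 0.015). S1pr3 had an interaction of 2.28 (FDR = 0.0424) and Unc93b1, a trafficking protein of Toll-like receptors, one of 0.48 (FDR = 0.0479), and they were called in 4 and 1 of the 12 fits. Il17rb, a chain of the IL-25 receptor, was the only gene whose difference grew. It stood at 39.1 to 41.6 CPM in WT and 50.3 to 54.2 CPM in Il6-/- recipients on Day 3, and at 40.7, 43.7 and 47.7 CPM and 87.9, 108 and 109 CPM on Day 5 (interaction -0.85, SE 0.14, FDR = 0.00504). Exons of Il17rb overlap those of Actr8 and Chdh, so their reads cannot be told apart with certainty.

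Among the genes called on neither day, Myo1g, a myosin of lymphocytes, and Kcnab2, a potassium channel subunit, had interactions of -0.60 and -0.58, and Tap1, the peptide transporter of antigen presentation, one of -0.35. Trim28, a corepressor of transcription, and Cdc34, a ubiquitin-conjugating enzyme, had interactions of 0.74 each. Prdx6, Prpsap1 and Ndufb4, of redox balance, nucleotide synthesis and respiratory complex I, had interactions of 0.40, 0.42 and 0.65. Of the genes named in this class, each was called in at most 8 of the 12 fits.

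In the IL-2 and IL-6 pathways around these genes, most members had no called interaction. Over all genes tested, 4.92% had one. On Day 3, 7.52% were higher and 6.19% lower in Il6-/- recipients, and on Day 5, 1.27% were higher and 3.35% lower. Of 28 IL-2/STAT5-induced genes, 13 were higher and 1 lower in Il6-/- recipients on Day 3, 5 higher and 0 lower on Day 5, and the interaction was positive for Lta and negative for Icos and Ccr4. With the Day 5 block it was positive for 6 and negative for 2 members, against 5.84% and 4.86% of all genes tested. Il2ra, the alpha chain of the IL-2 receptor, stood at 24, 19.1 and 37.2 CPM in WT and at 96.7, 62.5 and 81.3 CPM in Il6-/- recipients on Day 3, and at 2.54 to 3.66 CPM and 3.38 to 7.79 CPM on Day 5. It fell steeply in both, and its interaction of 0.53 did not pass (SE 0.42, FDR = 0.531) and ranged from 0.22 to 0.83 when 1 library was left out. Cish, a STAT5-induced inhibitor, was higher in Il6-/- recipients on both days, with log2 fold changes of 1.71 and 1.58 (interaction 0.13, SE 0.24, FDR = 0.822). Il2rb, the beta chain, had an interaction of -0.16 (FDR = 0.395). Fasl, the death ligand, had one of 1.48 (FDR = 0.0573, and 0.0246 with the Day 5 block).

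Of 17 IL-6/STAT3-induced genes, 12 were lower in Il6-/- recipients on Day 3 and 9 on Day 5, and Socs3 and Il21 had a negative interaction. Over all genes tested, 6.19% were lower on Day 3 and 3.35% on Day 5, and 1.8% had a negative interaction. With the Day 5 block, 5 of the list had a negative and 1 a positive interaction, against 4.86% and 5.84% of all genes tested. The list's median log2 fold change was -1.06 on Day 3 and -0.64 on Day 5. Of 14 Th17 genes, 9 were lower on Day 3 and 7 on Day 5, and Il21 alone had a called interaction. Of 13 Th1 genes, 0 were called by edgeR without a block, 2 had an unadjusted p under 0.05, and Tbx21, the factor T-bet, had an interaction of 1.47 that missed the threshold (FDR = 0.0514, and 0.0226 with the Day 5 block). Of 11 Th2 genes 1 was called, Ccr4, and of 12 regulatory T cell genes 0 were called by edgeR, with an unadjusted p under 0.05 for 3. Socs1, another feedback inhibitor, had an interaction of 0.73 (FDR = 0.0773), and Jak3, a kinase of the IL-2 receptor beside Jak1, one of -0.37 (FDR = 0.0698).

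**Figure D4:**
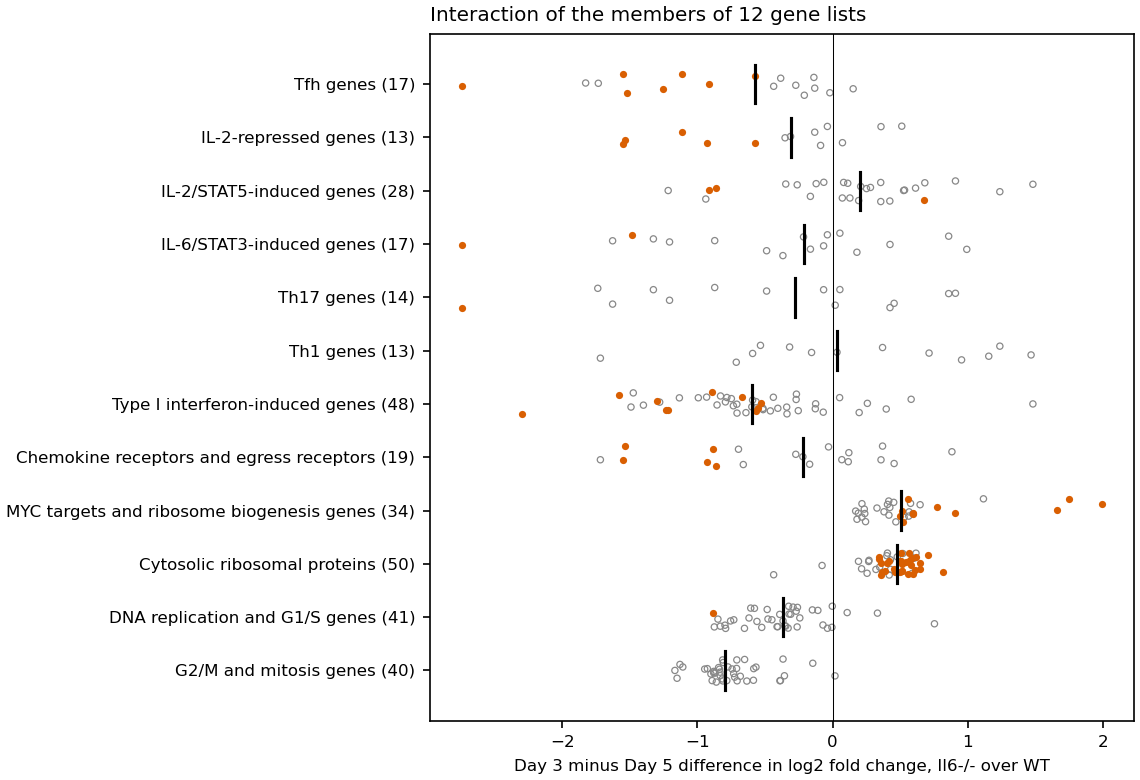
Interaction (Day 3 minus Day 5 difference in the log2 fold change of Il6-/- over WT recipients) of each tested member of 12 gene lists, with the number of members in parentheses. Filled points passed an FDR of 0.05, open points did not, and the bar is the median: 30 of 50 ribosomal proteins and 11 of 34 ribosome biogenesis genes are filled to the right of 0, and 10 of 48 interferon-induced and 7 of 17 Tfh genes to the left.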

How the data were processed

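RNA of OTII cells sorted from WT or Il6-/- recipients on Day 3 or Day 5 was sequenced in 12 libraries, 3 per group, as unstranded single-end reads. Per the study's methods and the submitters' processing notes, the authors trimmed the reads (Trim Galore 0.4.4), aligned them to GRCm39 (STAR 2.5.2a) and deposited raw counts per gene (HTSeq 0.6.1p1). They also deposited a table of log2 CPM for 11258 genes, all tested here, which served only for an alternative fit (limma-trend). Lines that name no gene were left out: reads on no feature made up 11.7% to 17.3% of a library. Unstranded counting cannot separate overlapping genes.

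Counts were filtered with filterByExpr, scaled by TMM (factors 0.944 to 1.06) and fitted with edgeR's quasi-likelihood model (edgeR 4.0.16, R 4.3.3), with 4 group coefficients over all 12 libraries. Genes past a Benjamini-Hochberg FDR of 0.05 were called and classed by their calls on each day. CPM values here were computed from TMM-scaled library totals, and fold changes come from the model. An exact permutation test of 3 against 3 cannot go below p = 0.1, so none was used. The model was tested on simulated data.

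Over all genes tested, deviations of same-numbered WT and Il6-/- libraries from their group means correlated at 0.243, 0.206 and 0.129 on Day 5. On Day 3 these correlations were 0.0333, 0.0599 and 0.0325, which does not show that the Day 3 libraries are unpaired. The labels do not say what a number marks. Alternatives were other scalings, filters and tools (limma 3.58.1, DESeq2 1.42.0), replicate blocks, offsets for GC content and length, and leaving out each library. The genes named were genes the study names, the 5 genes of smallest p per class and direction with a mean of at least 1 CPM, the largest interaction in each direction, and called members of the lists with up to 3 further members. Some genes that this rule selects are not reported here. The members and lists were chosen with earlier results of these data known. A count of 0 was set against a floor of 3 counts per library, which covers counting error only.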

Additional observations from a re-analysis of the deposited data

Results flagged for a closer look

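Each gene in this section had a difference between recipients that itself differed between Day 3 and Day 5 by edgeR's interaction test at an FDR under 0.05, and the value given is that interaction on the log2 scale. They are the named genes, 103 in number, and chosen partly for their small p.

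Of genes lower in Il6-/- recipients on Day 3 alone, those of homing, adhesion and Tfh cells were S1pr1 -0.93, S1pr4 -0.89, Cxcr5 -1.55, Itga7 -3.16, Itgb7 -0.80, Icos -0.91, Bcl6 -1.12, Il21 -2.74, Btla -0.58, Pou2af1 -1.25 and Tigit -3.19. Those of the interferon response were Slfn5 -1.58, Irf7 -1.30, Stat2 -0.67, Irf9 -0.55, Ifnar2 -0.44, Parp9 -0.53, Phf11b -0.56, Slfn1 -0.89, Oas3 -1.22, Ifi213 -1.23 and Rsad2 -2.30. The remaining ones were Slc9a9 -1.34, Chst10 -1.17, Txnip -0.95, Il17ra -0.47, E2f2 -0.88, Tgfb3 -2.65, Ddit4 -0.82 and Pecam1 -0.46.

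Of genes higher in Il6-/- recipients on Day 3 alone, those of ribosomes and their synthesis were Npm1 0.60, Nop16 0.77, Gnl3 0.90, Wdr43 0.60, Nop56 0.52, Nop58 0.56, Utp4 0.51, Ppan 0.50, Rpl5 0.50, Rps27a 0.59 and Rpl12 0.64. The remaining ones were Wnt10a 4.32, C1qbp 1.11, Chchd10 1.19, Snhg15 1.44, Ppid 0.71, Slc7a5 1.47, Bcl2l11 1.29, Hspe1 0.78, Cd74 1.04, Ctsw 1.64, Tnfsf11 0.55, Nfkbid 0.54 and Psme2 0.42.

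Genes that differed on Day 5 alone were Myo6 -3.24, Ticrr -1.30, Anxa2 -1.85, Zbtb32 -2.06, Pik3cg -0.70 and Ccr4 -0.86, which were higher in Il6-/- recipients, and Plbd2 0.80, Rab2a 1.01, Rrs1 1.75, Ptges2 1.60, Tcf3 1.04, Id2 0.98, Dusp2 0.90, Noc2l 1.66, Smad1 1.04, Rpl35 0.62 and Rps28 0.81, which were lower.

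Genes whose difference reversed were Klrb1c 2.70, Eno3 1.11, Srm 1.99, Srsf6 0.71, Sdhaf1 1.24, Pdf 0.89, Ahnak -1.35, Smtn -2.79, Vim -1.24 and Akap6, with a bound of -5.02. Genes whose difference shrank were Socs3 -1.48, Syt11 -0.85, Susd3 -0.89, Tox2 -1.52, Tnfrsf25 -1.02, Rxra 0.98, Lta 0.68, Cd86 1.36, S1pr3 2.28 and Unc93b1 0.48, and for Il17rb, at -0.85, it grew. Genes called on neither day were Myo1g -0.60, Kcnab2 -0.58, Tap1 -0.35, Prdx6 0.40, Prpsap1 0.42, Rps13 0.53, Trim28 0.74, Rpl30 0.61, Rpl21 0.66, Cdc34 0.74 and Ndufb4 0.65.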

How the results depend on the processing

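The 668 called interactions became 1300 when genes of low counts were kept and 1136 under DESeq2, and 121 of the genes passed an FDR of 0.01 and 187 a difference of at least 1. Positive and negative interactions numbered 228 and 420 with no scaling (median of all genes -0.104), 721 and 579 without a filter, and 653 and 483 with DESeq2. Day 3 calls were 2985 with quality weights in limma-voom, and Day 5 calls 413 with these weights, 1397 without a filter and 1127 with DESeq2. Genes called on Day 3 only numbered 626 with DESeq2 and 652 with quality weights, on Day 5 only 520 without a filter and 316 with DESeq2, and reversed genes 83 and 38. With a fold of at least 2 required on a day, these classes held 88, 57 and 1 genes. With the replicate number as a block on Day 5, within each day, and within each day with a GC offset, which were added after the data were seen except for the block within each day, interactions numbered 1452, 1564 and 1521. Positive ones then numbered 792, 847 and 853, negative ones 660, 717 and 668, and Day 5 calls 1487, 1592 and 1620. Genes called on Day 3 only numbered 719, 764 and 728, on Day 5 only 482, 508 and 511, and reversed genes 98, 114 and 122. The cause of these moves was not tested.

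Leaving out 1 library gave 235 to 943 interactions, 136 to 672 positive and 99 to 356 negative, 942 to 2042 calls on Day 3 and 225 to 1169 on Day 5, with 142 to 398 genes called on Day 3 only, 60 to 394 on Day 5 only and 6 to 67 reversed, 1 to 12 shrinking and 0 to 6 growing. Cish, at 0.13 and not called, ranged from -0.002408 without replicate 2 to 0.33 without replicate 3 of WT on Day 3. Over the 103 named called genes, 949 of 1236 values without 1 library and 1490 of 1542 under other settings kept direction and call, and the others kept direction but were not called. Values of genes near the floor are limited by depth, 3 counts being 1.15e-05% to 1.86e-05% of a library.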

Other observations

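Lists with no called interaction in edgeR's fit without a block still leaned in sign, where the median over all genes tested was -0.004. The estimate was positive for 33 of 37 subunits of the respiratory chain, with a median of 0.20, and negative for 23 of 28 genes of cholesterol and fatty acid synthesis, with a median of -0.30. At an unadjusted p under 0.05, 13 of the subunits and 5 of the synthesis genes passed. The share of all genes tested at that level is not given here. With the replicate block on Day 5, 6 subunits had a positive interaction and 8 synthesis genes a negative one, and 10 of the latter were higher in Il6-/- recipients on Day 5. Over all genes tested with this block, 5.84% had a positive and 4.86% a negative interaction, and 5.06% were higher on Day 5. Of 14 circadian clock genes, 0 were called without and 3 with the block, and their median was 0.71. Per2, a repressor of the clock, had an interaction of 1.40 (FDR = 0.0642).

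Trbc1, a constant segment of the T cell receptor beta chain, was singled out after its values were seen. On Day 3 replicates 1, 2 and 3 stood at 290, 239 and 87.5 CPM in WT and at 236, 193 and 78.9 CPM in Il6-/- recipients. On Day 5 they stood at 106, 5.56 and 543 CPM in WT and at 96.3, 5.16 and 532 CPM in Il6-/- recipients. Same-numbered libraries of the 2 recipients were close to each other on both days, and libraries of different number were far apart. They are the basis on which the Day 3 libraries were said above to be not shown to be unpaired.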
